A study of Mus musculus with 4 samples.

Results

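The 7 genes described here serve antigen presentation by major histocompatibility complex (MHC) class II: H2-Aa, H2-Ab1, H2-Eb1, Cd74, Ciita, H2-DMa and H2-DMb1. They were chosen by name, not by their values, and all 7 of 7 were among the 28889 genes listed in the 3 libraries with a count matrix. The tumours came from livers of male C57BL/6 mice, 18 weeks of age, 10 weeks after hydrodynamic tail vein injection, a rapid high-volume injection that drives plasmid DNA into hepatocytes. Every mouse received a transposon for AKT (pT3-EF1α-AKT), another for c-MYC (pT3-EF1α-c-MYC) and the SB100X transposase. The vector group received the pT3 empty vector in addition, and the KLF2 group received pT3-EF1α-KLF2, which encodes a transcription factor known from endothelium and lymphocytes. The EF1α promoter is active in most cell types, so the injection and not the promoter limits the transgenes to cells that took up the plasmids. The 4 samples are labelled as biological replicates. Vector replicate 2, KLF2 replicate 1 and KLF2 replicate 2 were analysed, and vector replicate 1 was not analysed here, so each comparison set 1 vector library against 2 KLF2 libraries.

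MHC class II molecules carry peptides from the endosomal pathway to the surface, where CD4+ T cells read them. Dendritic cells, B cells and macrophages are the professional presenting cells, and sinusoidal endothelium of the liver is known to carry class II as well. CIITA, the product of Ciita, is a coactivator without DNA binding of its own. It is recruited by the RFX and NF-Y complexes to the X and Y boxes of class II promoters and is induced by interferon gamma. H2-Aa and H2-Ab1 encode the alpha and beta chain of I-A, and H2-Eb1 encodes the beta chain of I-E. C57BL/6 mice lack surface I-E because H2-Ea is not expressed, so H2-Eb1 transcripts do not stand for an I-E molecule in this strain. Cd74 encodes the invariant chain, which fills and escorts new class II molecules. H2-DMa and H2-DMb1 encode chains of H2-DM, which exchanges the invariant chain remnant CLIP for peptides.

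On the GRCm38 annotation, 5 of the 7 genes lie within 197.134 kb of the MHC on chromosome 17. H2-DMa (ENSMUSG00000037649.10) lies at chr17:34119541-34139101, H2-DMb1 (ENSMUSG00000079547.4) at chr17:34153072-34160230 and H2-Ab1 (ENSMUSG00000073421.6) at chr17:34257689-34269419, all on the plus strand. H2-Aa (ENSMUSG00000036594.15) lies at chr17:34282744-34287823 on the minus strand and H2-Eb1 (ENSMUSG00000060586.11) at chr17:34305867-34316674 on the plus strand. Ciita (ENSMUSG00000022504.10) lies at chr16:10480059-10528418 on the plus strand. The strand setting of the authors' counting is not given in the sources used here. H2-DMa overlaps Brd2, a widely expressed chromatin gene on the opposite strand, along with 3 other annotated genes, and Ciita overlaps Dexi and H2-Eb1 overlaps Gm20513 on the opposite strand.

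The promoters of class II genes are shown as background on the X and Y boxes. A link between these sequences and the changes described below was not tested. RefSeq promoter windows of GRCm38.p6 (250 bases before to 50 after each start) were matched by symbol. Entries were found for 4 members, H2-Aa, H2-Eb1, H2-DMa and H2-DMb1, and for 4 further class II genes. The letters TGATTGG, a Y-box core, and AACNGATG, found in X boxes, were searched on both strands; the second was chosen with these sequences in view, and the motifs do not overlap. Below are 80-base stretches in the direction of transcription, with matches in capitals.
H2-Aa (chr17:34287849-34287928, minus strand): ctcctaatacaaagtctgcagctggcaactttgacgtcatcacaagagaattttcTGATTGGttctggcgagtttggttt
H2-Eb1 (chr17:34305751-34305830, plus strand): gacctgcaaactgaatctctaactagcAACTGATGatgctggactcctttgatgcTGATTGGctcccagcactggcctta
H2-Eb2 (chr17:34325518-34325597, plus strand): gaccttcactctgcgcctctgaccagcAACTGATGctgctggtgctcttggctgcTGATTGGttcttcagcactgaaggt
H2-DMb2 (chr17:34145102-34145181, plus strand): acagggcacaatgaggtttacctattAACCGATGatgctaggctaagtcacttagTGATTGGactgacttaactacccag
H2-Ob (chr17:34238791-34238870, plus strand): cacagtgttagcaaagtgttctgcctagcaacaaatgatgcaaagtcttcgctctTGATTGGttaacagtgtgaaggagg

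TGATTGG was present in 2568 of 32851 promoters (7.82%) and AACNGATG in 762 (2.32%). AACNGATG followed by TGATTGG within 40 bases was present in 8 promoters (0.0244%), among them H2-Eb1, H2-DMb1, H2-DMb2 and H2-Eb2. The spacing was 20 bases in H2-Eb1 and H2-Eb2 and 21 in H2-DMb2. H2-Aa, H2-Oa and H2-Ob held TGATTGG alone, and the 2 windows of H2-DMa held neither. A match is a description of the sequence, not a binding site.

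The vector library held 45594544 unique molecular identifiers (UMIs, tags that count single RNA molecules) in 12852 barcodes, and the KLF2 libraries held 95374838 and 125458473 UMIs in 6282 and 11240 barcodes. The vector library stood apart in mitochondrial share: the median barcode had 16.3% mitochondrial UMIs there, against 0.227% and 0.35%. The source of this difference was not tested. Of the barcode names, 1685, 1089 and 1640 in vector replicate 2, KLF2 replicate 1 and KLF2 replicate 2 were also used by another library. After filtering, 8403, 6209 and 11103 cells were clustered without the class II genes and named from marker lists as "-like" classes. In the order vector, KLF2 replicate 1, KLF2 replicate 2, conventional dendritic cell (DC)-like cells numbered 251, 36 and 116, B cell-like cells 293, 100 and 146, and macrophage-like cells 339, 418 and 916. Monocyte-like cells numbered 109, 52 and 134, endothelial-like cells 1816, 97 and 236, and T/NK-like cells 3106, 93 and 396. The tumour/parenchymal compartment held 599, 5210 and 8366 cells. It joins hepatocyte-lineage-like and cholangiocyte-like clusters with unnamed clusters low in the pan-leukocyte gene Ptprc, and tumour cells could not be told apart in it from other parenchymal cells. Its makeup differed: hepatocyte-lineage-like cells were 596 of 599 in the vector library but 20 of 5210 and 57 of 8366 in the KLF2 libraries. Levels are given in CPM, a gene's UMIs scaled to 1000000 UMIs of the class in a library. Klf2 itself, counted on the mouse gene, reached 148, 326 and 380 CPM in the compartments of vector replicate 2, KLF2 replicate 1 and KLF2 replicate 2, and the change was not called (log2 change 0.58, adjusted p = 0.199, edgeR). Whether the plasmid carries mouse or human KLF2 is not given in the sources used here.

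Among the named classes with at least 36 cells in each library, class II transcripts were highest in 4: conventional DC-like, macrophage-like, B cell-like and monocyte-like cells. The others were set against the level of free RNA. Free RNA is RNA in the droplet that did not come from the cell, and doublets add to it. T/NK-like cells served as its measure, since mouse T cells do not transcribe class II genes. The class also holds NK-like cells, and its makeup differed. The 6 NK markers summed to 127, 1019 and 889 CPM there in vector replicate 2, KLF2 replicate 1 and KLF2 replicate 2. The 9 T cell markers summed to 3636, 4697 and 3262 CPM. The 7 genes together took 976 CPM of the T/NK-like UMIs in the vector library, 116 CPM in KLF2 replicate 1 and 262 CPM in KLF2 replicate 2. These values were 3.47%, 1.39% and 1.28% of the macrophage-like level of the same library. For class II transcripts, the free-RNA level was thus higher in the vector library than in either KLF2 library. The complement genes C1qa, C1qb and C1qc, made by macrophages, did not share this order. They summed to 74.6, 32.4 and 107 CPM in T/NK-like cells of vector replicate 2, KLF2 replicate 1 and KLF2 replicate 2. These values were 1.33%, 0.459% and 1.06% of their macrophage-like level.

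Conventional DC-like cells carried 28644.5, 40601 and 35149 CPM of the 7 genes in vector replicate 2, KLF2 replicate 1 and KLF2 replicate 2. Macrophage-like cells carried 28119, 8376 and 20493 CPM, B cell-like cells 12492, 16846 and 9905 CPM, and monocyte-like cells 13794, 10850 and 5700 CPM. DC-like cells were highest in each library, by a narrow margin over macrophages in the vector library. The ranges of macrophage-like, B cell-like and monocyte-like cells overlapped across libraries, so their order is not fixed beyond the spread. Below them, neutrophil-like cells carried 2028, 235 and 684 CPM, the compartment 1823.5, 79.5 and 233 CPM, mesenchymal-like cells 1671, 94.7 and 260 CPM, and endothelial-like cells 1328, 302 and 323 CPM. The ranges of these classes overlapped with each other and with T/NK-like cells, and their vector value was the highest of the 3 in each of them. Cholangiocyte-like cells, present only in the KLF2 libraries, carried 74.3 and 189 CPM, under the T/NK-like level of both libraries. Plasmacytoid DC-like cells, 9 and 15 in vector replicate 2 and KLF2 replicate 2, carried 8939 and 8010 CPM. Basophil and mast-like cells, 9 in KLF2 replicate 2, carried 8719 CPM. Hepatocyte-lineage-like cells, taken apart from the compartment, carried 1830 CPM in 596 vector cells, 108 CPM in 20 cells of KLF2 replicate 1 and 2174 CPM in 57 cells of KLF2 replicate 2, which are 1.87, 0.929 and 8.29 times the T/NK-like level.

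**Figure D1:**
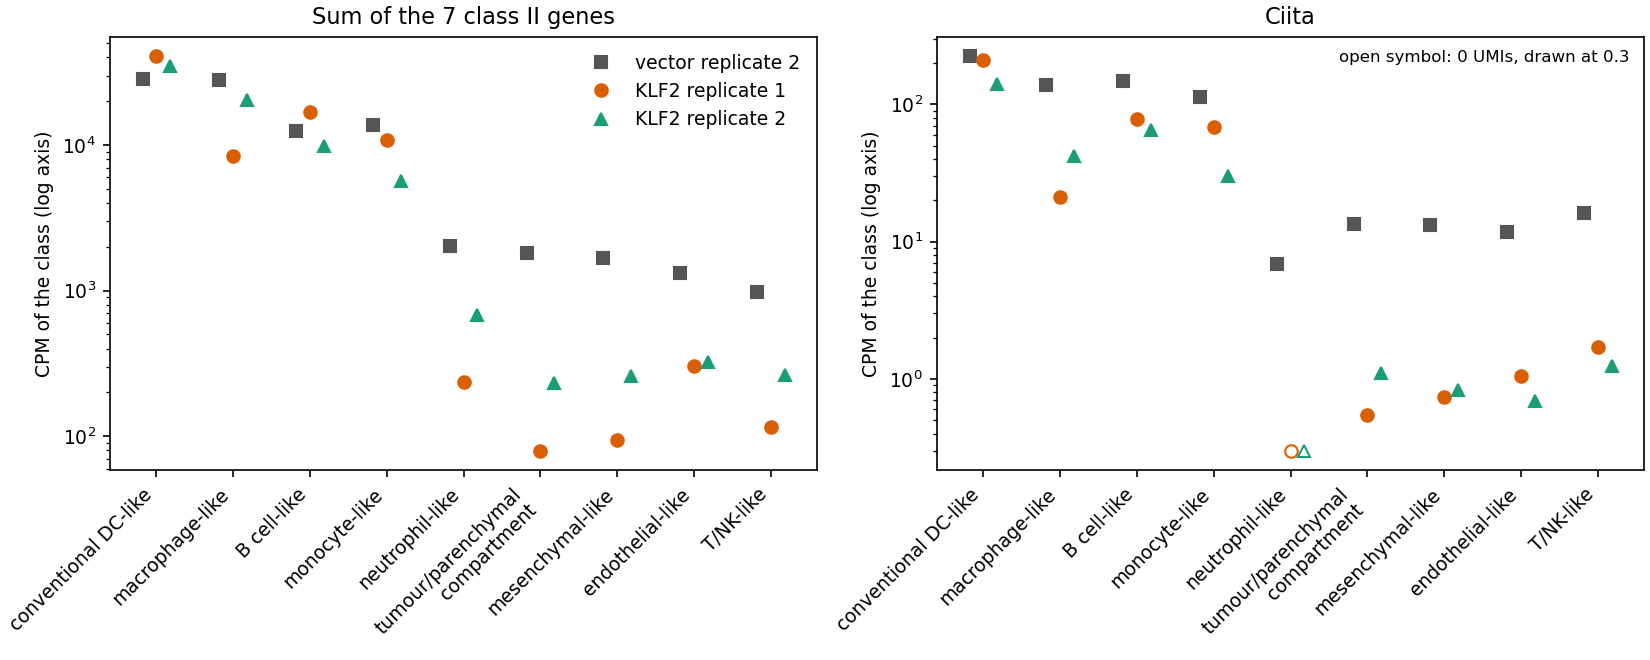
Summed level of the 7 class II genes (left) and of Ciita (right) in CPM, on log axes, by cell class, with 1 point per library and no error bar because each point is 1 mouse. Conventional DC-like cells sit between 28644.5 and 40601 CPM, and the classes from neutrophil-like to T/NK-like lie below every monocyte-like value.

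Ciita, the regulator, marked the same 4 classes. DC-like cells had 223, 210 and 141 CPM of Ciita in the vector library and KLF2 replicates 1 and 2, B cell-like cells 147, 78.7 and 64.9 CPM, macrophage-like cells 137, 21.0 and 42.1 CPM, and monocyte-like cells 112, 67.8 and 30.3 CPM. In each of these 4 classes the vector value was the highest, by a narrow margin over KLF2 replicate 1 in DC-like cells. The share of all genes with this order was not counted. T/NK-like cells held 203 Ciita UMIs (16.1 CPM) in the vector library, but 1 and 2 UMIs in the KLF2 libraries. Endothelial-like cells held 120, 1 and 1 Ciita UMIs and the compartment 42, 46 and 118 UMIs, the latter being 13.5, 0.543 and 1.10 CPM. With every cell thinned to 1000 UMIs, Ciita was seen in 22.1% of vector DC-like cells (17.4 to 27.6, Wilson 95% interval, counting error only) and in 16.7% (7.87 to 31.9) and 16.4% (10.7 to 24.2) in the KLF2 libraries. Thinned macrophage-like cells with Ciita made up 15.2% (11.8 to 19.5), 3.11% (1.83 to 5.25) and 4.48% (3.32 to 6.02). The unthinned shares were 46.0%, 13.2% and 15.1%. In thinned T/NK-like cells, with median depths of 3134, 5199 and 3323.5 UMIs before thinning, the share was 1.42% (1.05 to 1.90) in the vector library. It was 0 of 93 and 0 of 396 cells in the KLF2 libraries, which allows shares of up to 3.23% and 0.758%.

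The I-A chains and the E beta chain ran together. H2-Ab1 stood at 5873, 8831 and 7726 CPM in DC-like cells, at 5404, 1489 and 3680 CPM in macrophage-like cells and at 1764, 2296 and 1451 CPM in B cell-like cells of vector replicate 2, KLF2 replicate 1 and KLF2 replicate 2. H2-Aa stood at 5288, 8456 and 6894 CPM in DC-like cells and at 5382, 1531 and 3524 CPM in macrophage-like cells. H2-Eb1, without a partner chain in this strain, stood at 4845, 6463 and 6513 CPM in DC-like cells and at 5034, 1310 and 3756 CPM in macrophage-like cells. For these chains the vector value was the lowest of the libraries in DC-like cells and the highest in macrophage-like cells. How many other genes did so was not counted.

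Cd74 took 11581, 15543 and 12995 CPM in DC-like cells, 11294, 3753 and 8914 CPM in macrophage-like cells and 6912, 8653 and 5013 CPM in B cell-like cells. Its share of the members' UMIs was larger in B cell-like cells, at 55.3% (54.4 to 56.3, Wilson 95% interval), 51.4% (50.3 to 52.5) and 50.6% (49.2 to 52.1). In DC-like cells it was 40.4% (40.01 to 40.8), 38.3% (37.5 to 39.02) and 37.0% (36.4 to 37.5), so the ranges of the 2 classes did not overlap. No test was made between classes, which are clusters of the same cells.

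H2-DMa stood at 453, 722 and 511 CPM in DC-like cells, at 430, 139 and 268 CPM in macrophage-like cells and at 293, 305 and 172 CPM in monocyte-like cells. H2-DMb1 stood at 382, 377 and 370 CPM in DC-like cells, the narrowest range of the 7 genes in that class in relative terms. In T/NK-like cells H2-DMa behaved unlike the other members, at 27.4, 18.8 and 19.9 CPM. It made up 2.80% (2.53 to 3.11), 16.2% (9.28 to 26.7) and 7.60% (5.44 to 10.5) of the members' UMIs there, against 1.53%, 1.66% and 1.31% in macrophage-like cells. Brd2, its opposite-strand neighbour, stood at 290, 140 and 117 CPM in T/NK-like cells, and its part in the H2-DMa counts was not tested.

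Other class II genes, from a list chosen together with the members, showed narrower patterns. H2-Oa and H2-Ob encode H2-O, an inhibitor of H2-DM. H2-Ob stood at 245, 311 and 205 CPM in B cell-like and at 76.6, 122 and 70.3 CPM in DC-like cells, but at 9.79, 3.001 and 3.75 CPM in macrophage-like cells. H2-Oa stood at 175, 333 and 171 CPM in DC-like cells, 113, 179 and 90.8 CPM in B cell-like cells and 21.6, 1.60 and 5.06 CPM in macrophage-like cells. H2-DMb2, an alternative H2-DM beta chain, stood at 275, 299.98 and 182 CPM in B cell-like cells, 158, 289 and 160.0 CPM in DC-like cells and 25.3, 5.80 and 8.43 CPM in macrophage-like cells. For these 3 genes, no macrophage-like value reached a B cell-like or DC-like value. Ctss, the protease that trims the invariant chain, had the opposite order, with 1514, 2886 and 2797 CPM in macrophage-like and 141, 443 and 255 CPM in B cell-like cells. Ifi30, a thiol reductase of the endosome, stood at 928, 1534 and 1197 CPM in DC-like and at 896, 701 and 515 CPM in macrophage-like cells. H2-Ea, the missing partner of H2-Eb1, was not analysed here.

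**Figure D2:**
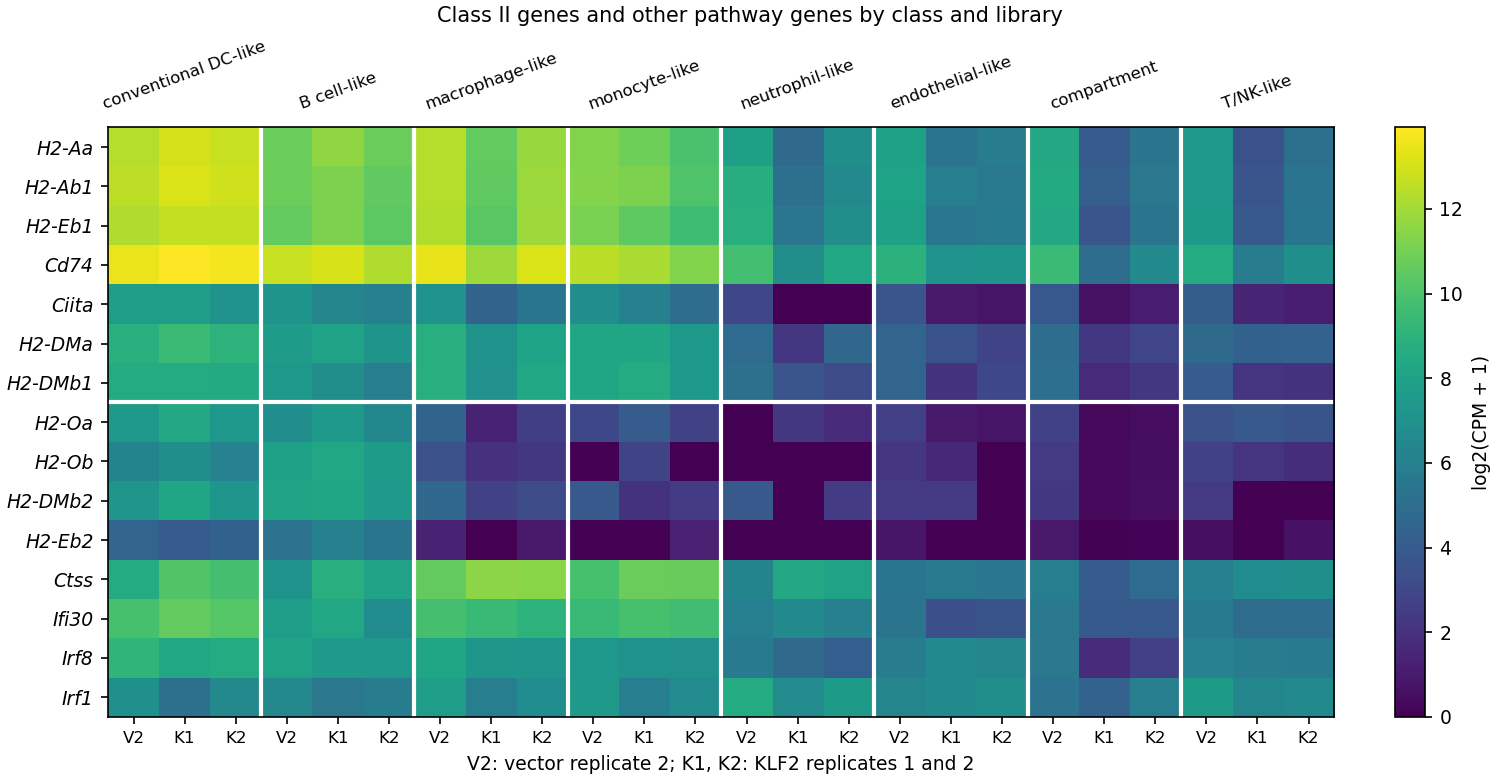
Level of the 7 class II genes (above the white line) and 8 other pathway genes as log2(CPM + 1), by class and library, with 1 column per library. H2-Oa, H2-Ob and H2-DMb2 are bright in B cell-like and conventional DC-like columns and dark in macrophage-like columns, where Ctss is at 1514 to 2886 CPM.

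Within the myeloid cells, the sub-clusters of each library were compared by their level and leading genes. DC-like sub-clusters stayed within a narrow band of 24194 to 40601 CPM of the 7 genes in the 3 libraries. Those with Xcr1 of cross-presenting DCs, at 106 and 75.5 CPM in the vector library and 328 CPM in KLF2 replicate 2, carried 24194, 28178 and 39037 CPM. The sub-clusters with Cd209a, at 137 and 84.8 CPM, carried 31616 CPM in the vector library and 34088 CPM in KLF2 replicate 2. All 36 DC-like cells of KLF2 replicate 1 formed a sub-cluster that also led with the mast cell protease genes Mcpt1 and Mcpt2.

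Macrophage-like sub-clusters spread much wider in the KLF2 libraries than in the vector library. The 4 vector sub-clusters lay between 18578 and 34730 CPM, the top one led by the interferon-induced chemokine genes Cxcl10 and Cxcl9. The 7 sub-clusters of KLF2 replicate 1 ran from 745 CPM, in 35 cells led by Saa3 and Prg4, to 32286 CPM, in 70 cells led by C1q genes. Those led by Arg1 carried 2314 and 2129 CPM. In KLF2 replicate 2 the 7 sub-clusters ran from 3975 to 32525 CPM, with the Cxcl9 and Isg15 sub-cluster at the top. Sub-clusters led by the Kupffer cell genes Cd5l and Clec4f carried 4978 CPM in KLF2 replicate 1 and 3975 CPM in KLF2 replicate 2. A vector sub-cluster in which Cd5l and Clec4f were among the leading genes behind Mmp12 carried 19547 CPM. Ciita ran from 129 to 153 CPM over the 4 vector sub-clusters and from 0 to 63.8 CPM over the KLF2 sub-clusters. For the summed members these ranges overlapped. The vector sub-clusters come from 1 library and are not replicates, so their range gives no spread between vector mice.

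Unnamed myeloid cells, 57 and 450 in KLF2 replicates 1 and 2 and 0 in the vector library, carried 4097 and 4664 CPM of the 7 genes. Of these, 57 cells of KLF2 replicate 1 and sub-clusters of 170 and 57 cells of KLF2 replicate 2 had macrophage markers but failed the marker check. Those of 57 and 170 cells led with Mmp12 and Spp1, and the other of 57 cells led with Saa3 and Arg1.

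**Figure D3:**
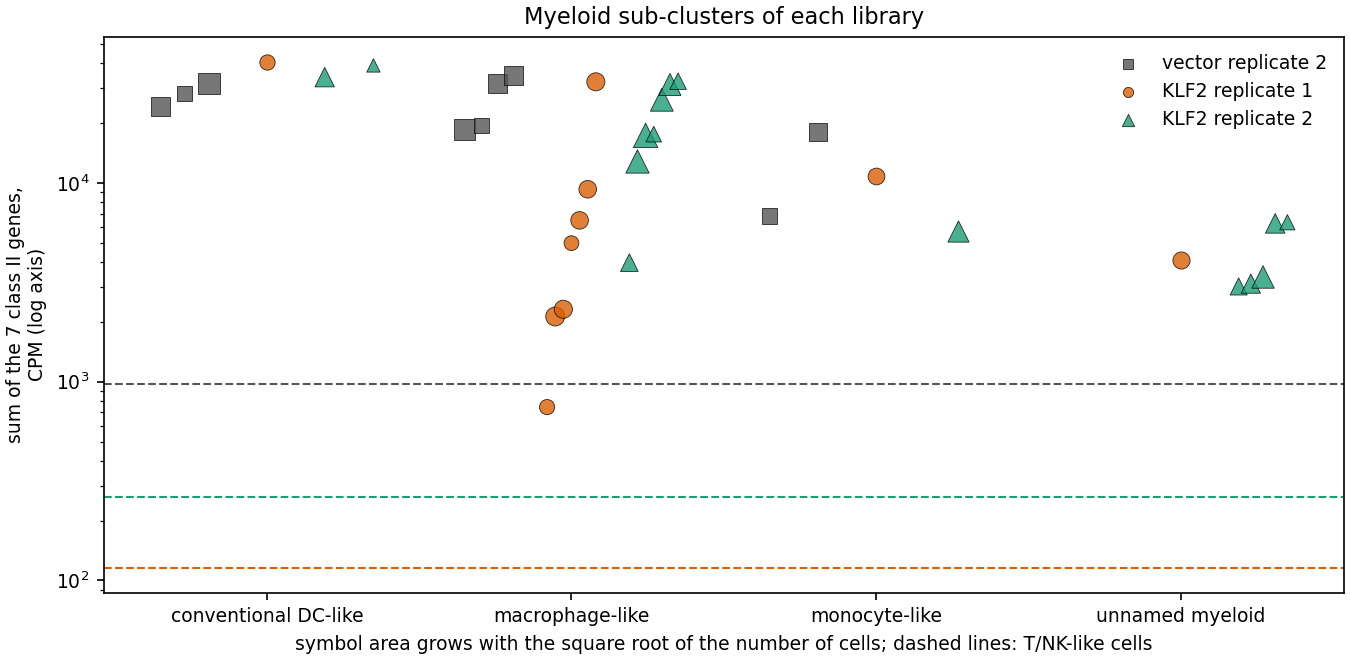
Summed level of the 7 class II genes in CPM (log axis) in each myeloid sub-cluster, by class and library, with dashed lines at the T/NK-like level of each library and larger symbols for more cells. Conventional DC-like sub-clusters stay between 24194 and 40601 CPM, and macrophage-like sub-clusters reach down to 745 CPM in KLF2 replicate 1 but not under 18578 CPM in the vector library.

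Single cells were compared at matched depth. Among macrophage-like cells thinned to 1000 UMIs, the median cell held 25, 1 and 16 UMIs of the 7 genes in vector replicate 2, KLF2 replicate 1 and KLF2 replicate 2. At least 5 such UMIs were held by 91.3%, 34.7% and 73.8% of them. The top 5% of cells held 34.7% of the members' UMIs in KLF2 replicate 1, against 12.2% in the vector library. The median DC-like cell held 27, 47.5 and 35.5 UMIs and the median B cell-like cell 14, 20 and 11. The 10th percentiles of DC-like cells were 13, 1 and 4 UMIs, and 96.4%, 83.3% and 86.2% of these cells held at least 5. Monocyte-like cells were mixed in every library, with medians of 7, 1 and 1 and 90th percentiles of 35.3, 29.7 and 20.7 UMIs. T/NK-like cells reached 5 UMIs in 1.75%, 0% and 0.253% of cells.

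For the change with KLF2, UMIs were summed per class and library and tested with edgeR's quasi-likelihood test over all genes of the class, with Benjamini-Hochberg adjusted p under 0.05 as the threshold. Fold changes are KLF2 over vector on the log2 scale. Only the 2 KLF2 libraries measure the spread, which leaves 1 residual degree of freedom per gene, and vector replicate 2 is assumed to vary like them. In all classes the groups also differ in mitochondrial share and in the free-RNA level of class II transcripts, and the parts of both in the changes were not tested.

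In conventional DC-like cells 0 of 7 members were called by edgeR, where 3.17% of 7796 genes were called. An unadjusted p under 0.05 in edgeR was reached by 0 members and by 1375 of all genes. DESeq2 also called 0 members, and 1.76% of all genes. The log2 changes ran from -0.70 for Ciita (SE 0.33, adjusted p = 0.315) to 0.20 for H2-Aa (SE 0.22, adjusted p = 0.693), with a median of 0.09 beside 0.04 for all genes tested. In CPM, H2-Aa was higher in both KLF2 libraries (8456 and 6894 CPM) than in the vector library (5288 CPM). The fit also scales the libraries by TMM factors, which these CPM values lack, and its change of 0.20 was under the SE of 0.22. KLF2 replicate 1 has 36 cells, under the minimum of 50, so this test was added after the other values were seen.

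In B cell-like cells Ciita and H2-DMb1 fell, and the other 5 members were not called. Ciita went from 147 CPM in the vector library to 78.7 and 64.9 CPM (log2 change -1.26, SE 0.38, adjusted p = 0.00874). H2-DMb1 went from 168 to 115 and 60.6 CPM (log2 change -1.18, SE 0.37, adjusted p = 0.0128). Both KLF2 libraries lay below the vector library for these 2 genes, but on either side of it for Cd74, H2-Ab1, H2-Eb1 and H2-DMa. Of 6339 genes, 8.14% were called lower, and the members' median was -0.22 beside 0.07 for all genes. Both calls were lost with DESeq2, which called 0.852% of genes lower, with cells of at most 10% mitochondrial UMIs and without the top 5% of doublet scores. The median of the members was -0.65 without KLF2 replicate 1 and 0.07 without KLF2 replicate 2.

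In macrophage-like cells none of the members was called, and their fitted log2 changes ran from -2.37 to -1.08. Ciita stood at 137 CPM against 21.0 and 42.1 CPM (log2 change -2.37, SE 0.57, adjusted p = 0.204) and H2-Aa at 5382 CPM against 1531 and 3524 CPM (log2 change -1.34, SE 0.67, adjusted p = 0.335). The smallest change was that of Cd74, at -1.08 (SE 0.69, adjusted p = 0.412). The 2 KLF2 libraries lay far apart, and the median of -1.31 became -0.73 without KLF2 replicate 1 and -2.05 without KLF2 replicate 2, beside 0.15 for all genes. edgeR called 0% of the 13007 genes in this class, 2820 of them having an unadjusted p under 0.05, and 1 member, Ciita, was among those. DESeq2 called 4.4% of genes and 1 member, cells thinned to 1000 UMIs gave 6 members, and keeping the sub-clusters that failed the marker check gave 4, all of them lower.

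Monocyte-like cells had 5 of 7 members called lower, where 3.62% of 5913 genes were called lower. H2-Eb1 fell most firmly, from 2190 CPM to 1393 and 779 CPM (log2 change -1.24, SE 0.26, adjusted p = 0.000113). H2-Aa fell from 2516 to 1864 and 963 CPM (log2 change -1.06, SE 0.26, adjusted p = 0.00115). Ciita, Cd74 and H2-Ab1 fell by 1.52, 0.93 and 0.87 on the log2 scale, while H2-DMa and H2-DMb1 were not called and had their highest value in KLF2 replicate 1. The members' median was -0.93 beside 0.07 for all genes, and it was -1.48 without KLF2 replicate 1 and -0.61 without KLF2 replicate 2. The makeup of the class moved with the result. A vector sub-cluster of 68 cells had 1379 CPM of C1q genes, 219 CPM of Ly6c2 and 18002 CPM of the members, while the other, of 41 cells, had 187 CPM of C1q genes, 611 CPM of Ly6c2 and 6800 CPM of the members. With only the sub-clusters of at least 500 CPM of Ly6c2, a marker of classical monocytes, the median turned to 0.16. H2-Aa, H2-Ab1, H2-Eb1, Cd74 and H2-DMb1 became positive, while Ciita and H2-DMa stayed negative. In this setting 1 member was called, and which one is not given here. The setting was not planned and left 41 vector cells. No member was called with DESeq2, which called 0.541% of genes lower, or without the filter on low counts.

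**Figure D4:**
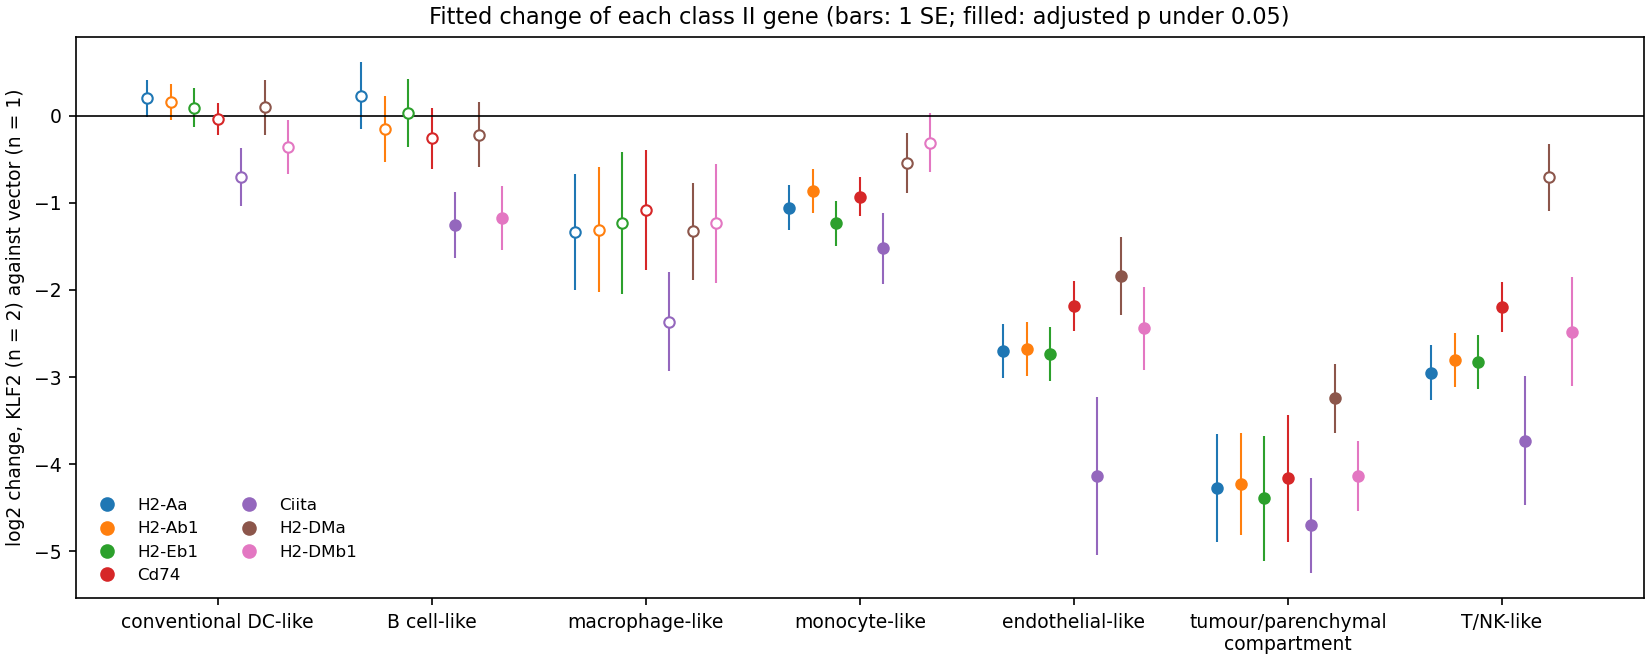
Fitted log2 change of each class II gene, KLF2 (2 libraries) against vector (1 library), by cell class, with bars of 1 SE and filled symbols for an adjusted p under 0.05. Conventional DC-like cells lie around 0, macrophage-like cells between -2.37 and -1.08 without a call, and endothelial-like, compartment and T/NK-like cells lower.

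Endothelial-like cells had all 7 members called lower, where 14% of 10609 genes were called lower, and T/NK-like cells, the measure of free RNA, had 6 of 7, where 8.76% of 10640 genes were called lower. In endothelial-like cells H2-Ab1 fell from 266 to 60.6 and 49.4 CPM (log2 change -2.68, SE 0.31, adjusted p = 2.7e-16) and Cd74 from 499 to 143 and 145 CPM (log2 change -2.18, SE 0.29, adjusted p = 1.71e-12). In T/NK-like cells H2-Ab1 fell from 182 to 11.9 and 40.5 CPM (log2 change -2.80, SE 0.31, adjusted p = 7.01e-18) and Cd74 from 371 to 56.3 and 122 CPM (log2 change -2.20, SE 0.28, adjusted p = 5.22e-13). H2-DMa was the T/NK-like member not called (log2 change -0.71, SE 0.38, adjusted p = 0.199). The members' medians were -2.68 in endothelial-like and -2.80 in T/NK-like cells, beside 0.02 and 0.03 for all genes. Without KLF2 replicate 1 they were -2.49 and -2.44, and without KLF2 replicate 2 -3.13 and -3.40. DESeq2 called 4 members in endothelial-like and 0 in T/NK-like cells, and its shares of genes called lower were 3.08% and 1.36%. Thinned endothelial-like cells gave 0 of the 4 members that could be tested.

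The change in endothelial-like cells did not differ detectably from that in T/NK-like cells. In a joint edgeR fit 0 of 7 differences were called, where 6.91% of 11874 genes were. An unadjusted p under 0.05 in that fit was reached by 1 member and by 1892 of all genes. DESeq2 called 0 differences, with 1.17% of genes. The differences ran from -1.12 for H2-DMa (SE 0.56, adjusted p = 0.291) to 0.40 for H2-Aa (SE 0.38, adjusted p = 0.704), on the log2 scale. These errors leave room for real differences in either direction. The comparison was added after the other values were seen.

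Set against T/NK-like cells of the same library, the endothelial-like level of the 7 genes was 1.36, 2.60 and 1.23 times as high in vector replicate 2, KLF2 replicate 1 and KLF2 replicate 2. The cells that held UMIs of the leukocyte markers C1qa, C1qb, C1qc, Lyz2, Cd79a, Cd79b or Ms4a1 were then left out of both classes. No gene of the DC or T cell marker lists was among these markers, so cells with such UMIs stayed in. Without the marker-positive cells, the ratios were 1.12, 0.585 and 0.772. Those rest on 3943, 19 and 90 endothelial member UMIs. In KLF2 replicate 1 the top 5% of thinned endothelial-like cells held 78.6% of the members' UMIs, and 1.03% of the cells had 5 or more. The 10 macrophage markers summed to 135, 467 and 358 CPM in endothelial-like cells, 9 of the 10 above 0 in every library, the 9 T cell markers to 458, 2.09 and 10.4 CPM, and the 11 DC markers to 302, 273 and 202 CPM, of which 4 were above 0 in every library. Their parts in the endothelial-like level beyond the values without marker-positive cells were not tested. The kind of endothelium differed too: the 6 sinusoidal markers, such as Stab2 and Clec4g, summed to 240 CPM in the vector library and to 2484 and 1598 CPM in the KLF2 libraries.

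**Figure D5:**
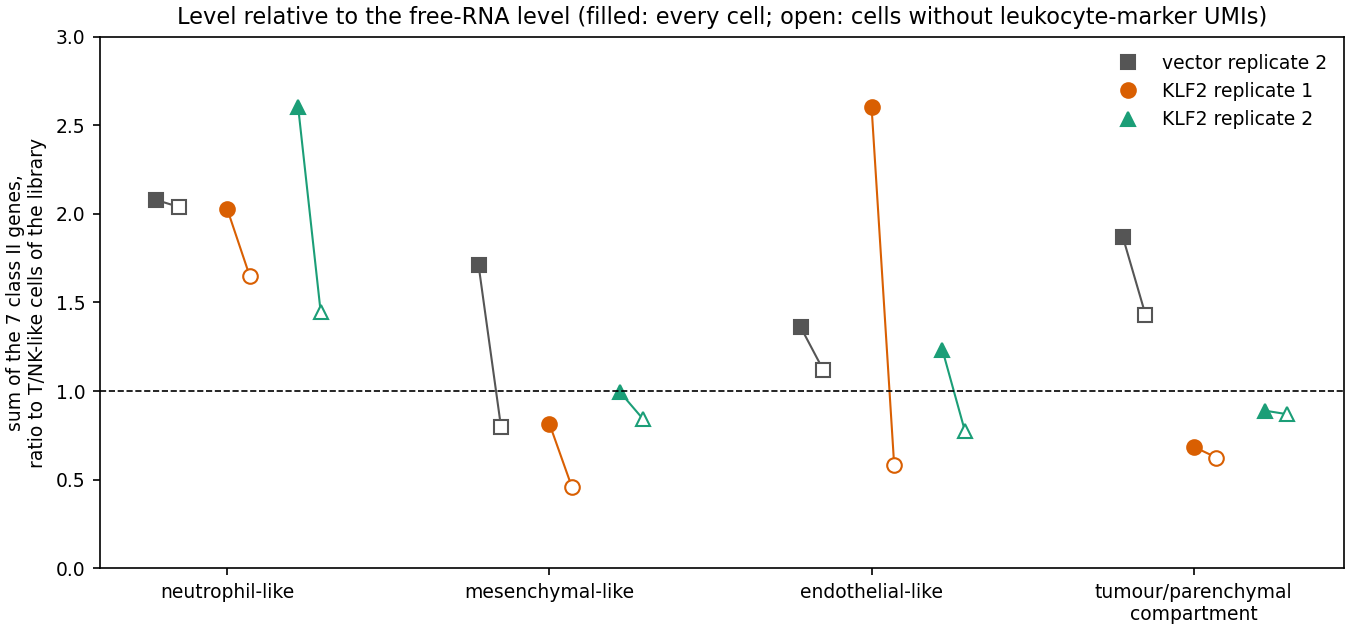
Summed level of the 7 class II genes relative to T/NK-like cells of the same library (dashed line at 1), with filled symbols for every cell and open symbols for cells without UMIs of leukocyte markers, by class and library. The leukocyte markers here are C1q genes, Lyz2 and B cell genes, without genes of the DC or T cell lists. Endothelial-like cells move from 1.36, 2.60 and 1.23 to 1.12, 0.585 and 0.772, and neutrophil-like cells stay above 1.

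The compartment had all 7 members called lower with KLF2, where 10.6% of 20450 genes were called lower. H2-Ab1 fell from 363 to 17.3 and 44.3 CPM (log2 change -4.23, SE 0.59, adjusted p = 0.0124), Cd74 from 709 to 28.9 and 97.7 CPM (log2 change -4.16, SE 0.73, adjusted p = 0.0215) and Ciita from 13.5 to 0.543 and 1.10 CPM (log2 change -4.70, SE 0.54, adjusted p = 0.00859). H2-DMa changed least, falling by 3.24 (SE 0.40, adjusted p = 0.00955). The median of the 7 was -4.23 beside 0.68 for all genes tested, which became 0.57 with RLE scaling and 0.40 with DESeq2. DESeq2 called 7 members lower, where it called 11.8% of genes lower, and edgeR with RLE scaling also called 7. The members' median was -3.66 without KLF2 replicate 1 and -5.11 without KLF2 replicate 2. Hepatocyte-lineage-like cells, which make up nearly the whole vector compartment, did not follow it in both KLF2 libraries: Cd74 stood at 712, 26.97 and 1328 CPM and H2-Ab1 at 364, 40.5 and 302 CPM in vector replicate 2, KLF2 replicate 1 and KLF2 replicate 2. Without the cells holding leukocyte-marker UMIs, the 7 genes stood at 1.44, 1.86 and 2.84 times the T/NK-like level there, on 1425, 3 and 77 member UMIs. With every cell, KLF2 replicate 1 has 8 member UMIs, and no test was made in this class, which has 20 cells there. The makeup of the compartment and the group cannot be told apart in its test.

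Set against free RNA, the compartment levels lay above it in the vector library and under it in both KLF2 libraries. They were 1.87, 0.685 and 0.889 times the T/NK-like level in vector replicate 2, KLF2 replicate 1 and KLF2 replicate 2, and 1.43, 0.625 and 0.869 times without the cells holding leukocyte-marker UMIs. Compartment cells with 5 or more member UMIs per 1000 were 6.75%, 0.0960% and 0.550%. The 9 T cell markers summed to 352, 14.2 and 12.9 CPM in the compartment and Ptprc to 54.8, 2.36 and 4.99 CPM. Within the KLF2 compartments, the 10 clusters of KLF2 replicate 1 ran from 61.5 to 129 CPM of the members and the 10 of KLF2 replicate 2 from 118 to 547 CPM. Clusters with fewer UMIs per cell had higher values, with Spearman rank correlations of -0.64 and -0.76 across the clusters of a library, which share their free RNA. The change in the compartment was larger than that in T/NK-like cells for 5 of 7 members, where 10.1% of 16577 genes were lower. The difference was -1.49 for H2-Ab1 (SE 0.33, adjusted p = 9.01e-05), and Ciita and H2-DMb1 were not called. DESeq2 called 4 of these differences, and 5.63% of genes in that direction. Depth differed too. Hepatocyte-lineage-like vector cells had a median of 3323.5 UMIs, and the unnamed compartment cells of KLF2 replicates 1 and 2 had 9093 and 5967. T/NK-like medians were 3134, 5199 and 3323.5 UMIs in vector replicate 2, KLF2 replicate 1 and KLF2 replicate 2. The part of depth in these differences was not tested.

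Against macrophage-like cells, the changes of other classes were tested in joint edgeR fits with a term for each library. DC-like cells had changes less negative than macrophage-like cells for 6 of 7 members, where 0.653% of 12100 genes were called in that direction. The difference was 1.64 for H2-Aa (SE 0.22, adjusted p = 1.18e-10) and 1.15 for Cd74 (SE 0.18, adjusted p = 1.5e-07) on the log2 scale, and H2-DMb1 was not called. DESeq2 called 0 of these 6, and 0.0496% of genes in that direction. The edgeR error of H2-Aa was 0.67 in macrophage-like cells alone, where the KLF2 libraries stood at 1531 and 3524 CPM. The smaller errors of the joint fit draw on other genes and are not the gene's own spread between KLF2 libraries. The compartment had changes more negative than macrophage-like cells for 7 of 7 members, where 7.67% of 14943 genes were called in that direction, and T/NK-like cells for 4 of 7, where 0.617% of 13605 were. DESeq2 called 7 and 0, where 6.38% and 0.0882% of genes were called. For B cell-like, monocyte-like and endothelial-like cells edgeR called 0 differences each, and DESeq2 also called 0. An unadjusted p under 0.05 in edgeR was reached by 5, 0 and 6 members, and how many of all genes reached it is not given here. The called shares of all genes in those fits were 0.664%, 0.103% and 1.7% with edgeR and 0.101%, 0.0186% and 0.544% with DESeq2.

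The other genes of the pathway were counted class by class. Of 32 listed genes, 28 were in the gene lists and 20 to 28 were tested per class. In DC-like cells 0 of 25 were called by edgeR, against 3.17% of all genes, and DESeq2 called 0. An unadjusted p under 0.05 in edgeR was reached by 7 of the 25, beside 1375 of 7796 genes. In monocyte-like cells 2 of 20 were called lower by edgeR, against 3.62% of all genes, and DESeq2 called 0, against 1.39% of all genes in either direction. The interferon-induced transcription factor gene Irf1 fell from 182 to 61.6 and 102 CPM (log2 change -1.30, SE 0.37, adjusted p = 0.00888), and the protease gene Ctsd fell from 356 to 191 and 192 CPM (log2 change -1.10, SE 0.34, adjusted p = 0.0196). In macrophage-like cells 0 of 27 were called by edgeR, 7 had an unadjusted p under 0.05 and DESeq2 called 2. Over all 13007 genes of this class edgeR called 0% and DESeq2 4.4%, and 2820 had an unadjusted p under 0.05 in edgeR. The pair was Cd40, a costimulatory receptor, at 75.5 CPM in the vector library against 24.8 and 18.7 CPM (adjusted p = 0.0161, DESeq2), and the protease gene Ctsl, at 44.9 against 352 and 152 CPM (adjusted p = 0.0106, DESeq2).

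In B cell-like cells edgeR called 4 of 23 higher and 2 lower, against 8.47% and 8.14% of all genes, and DESeq2 called 1, Cd83, against 2.89% of all genes. The maturation marker Cd83 rose from 60.7 to 413 and 545 CPM (log2 change 2.76, SE 0.44, adjusted p = 2.53e-08), and the costimulator Cd86 and the proteases Ctsl and Ctss rose by 1.75, 1.46 and 1.07. The transcription factor gene Spi1 fell from 68.7 to 34.0 and 15.1 CPM (log2 change -1.71, SE 0.44, adjusted p = 0.00157), and Irf1 fell by 1.07. In T/NK-like cells Cd83 and Ctsl rose and Spi1, Irf1 and Ifi30 fell, 5 of 23 in all by edgeR, against 20.2% of all genes. DESeq2 called 2 of them, Cd83 and Irf1, against 6.75% of all genes.

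In endothelial-like cells edgeR called 4 of 20 higher and 3 lower, against 14.3% and 14% of all genes. DESeq2 called 4, against 9.67% of all genes, and Ifngr1, Ifngr2 and Spi1 were not among them. Ctsl rose from 77.2 to 433 and 291 CPM (log2 change 1.81, SE 0.33, adjusted p = 5.52e-07), and Lgmn, Ctsb and Ifngr2 rose by 1.33, 0.96 and 0.82. Spi1, a leukocyte transcription factor gene, fell from 19.97 to 5.23 and 4.18 CPM, and Ifi30 and Ifngr1 fell by 2.31 and 0.87. In the compartment 1 of 28 rose and 9 fell, against 13.4% and 10.6%, and DESeq2 called 10, against 22.5% of all genes: Cd83 rose from 5.45 to 98.5 and 89.4 CPM, and the largest falls were those of H2-Oa, H2-Ob, Irf8 and H2-DMb2. H2-Oa had 17, 19 and 39 UMIs there, and H2-DMb2 had 12, 22 and 53.

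Outside the pathway, the genes whose level ran most like the members' mean were found over 32 class and library sums, among the 8569 genes that averaged 10 CPM or more. The 8 closest by Pearson correlation of log2(CPM + 10) were Ly86 (0.93), Pld4 (0.90), Unc93b1 (0.89), Irf5 (0.88), Pou2f2 (0.86), Cd180 (0.86), Nuak2 (0.86) and Plcg2 (0.84). Ly86 and Cd180 encode partner proteins on B cells and myeloid cells, and Unc93b1 escorts endosomal Toll-like receptors. Ly86 averaged 179, 187, 392 and 232 CPM in DC-like, B cell-like, macrophage-like and monocyte-like cells and 5.08 CPM in T/NK-like cells. The members themselves had 0.92 (Ciita) to 1.00 (H2-Ab1) with the mean they are part of, and H2-Oa, H2-Ob and H2-DMb2 had 0.65, 0.57 and 0.69. The sums share libraries, depth and free RNA, and these values are a description.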

How the data were processed

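The deposited files hold UMI counts per gene and cell barcode, not normalised; per the file headers the authors wrote them with PISA, and the build was GRCm38 per the submitters' processing notes. Aligner, annotation, cell calling and strand: not given in the sources used here. The 7 members and all lists were chosen with earlier results of these data known. Barcodes under 300 genes or over 25% mitochondrial UMIs were removed, and genes missing from a library's list counted as 0. Leiden clustering (scanpy 1.11.5; 2000 variable genes without class II pathway genes, 30 components, 15 neighbours, resolution 1.0) gave classes named from marker lists. Scrublet called 0 cells and so did not work on these libraries; no cell was removed as a doublet. Myeloid cells were clustered again within each library. UMIs were summed per library and class, with at least 50 cells per library except for DC-like cells and the Ly6c2 setting. The sums were tested with edgeR 4.0.16 (TMM, filterByExpr, quasi-likelihood) and DESeq2 1.42.0 as an alternative, after tests on simulated data. For B cell-like, monocyte-like, endothelial-like and T/NK-like cells edgeR used a spread common to all genes of like abundance. The samples are labelled as biological replicates. With 1 vector library, the spread behind the p-values comes from the KLF2 libraries. The tests draw on other genes for it, in the joint fits as well, so it is not each gene's own spread. Depth differed between classes and libraries, so shares of cells were compared after thinning to 1000 UMIs. Intervals are Wilson 95%, limits for a count of 0 use 3 counts, and both cover counting error only. Named genes were the 7 members in each class, up to 4 called pathway genes per direction by fold, H2-Oa, H2-Ob, H2-DMb2, Ctss and Ifi30 as levels, and the 8 closest genes. One listed pathway gene is not reported here and is not counted. Cd40 and Ctsl in macrophage-like cells, sub-cluster marker genes, Klf2, Brd2, H2-Eb2 and the promoter genes were named after their values were seen. Positions come from the GENCODE annotation of GRCm38 and promoter sequences from RefSeq.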

Additional observations from a re-analysis of the deposited data

Results flagged for a closer look

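The change with KLF2 differed between cell classes by a test of the difference itself in 4 comparisons. It differed between conventional DC-like and macrophage-like cells for 6 members, the DC-like changes being the less negative, in a test added after the data were seen because KLF2 replicate 1 has 36 DC-like cells. Of all genes 0.653% were called in that direction, and DESeq2 called 0 members. It differed between the compartment and macrophage-like cells for 7 members and between T/NK-like and macrophage-like cells for 4, the macrophage-like changes being the less negative in both. Of all genes 7.67% and 0.617% were called in that direction, and DESeq2 called 7 and 0 members. It differed between the compartment and T/NK-like cells for 5 members, the compartment changes being the more negative. Of all genes 10.1% were called in that direction, and DESeq2 called 4 members. The depth and makeup of the compartment differed between the groups, and their parts were not tested. The calls for DC-like and T/NK-like cells against macrophage-like cells were thus lost with DESeq2.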

How the results depend on the processing

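No paired analysis was possible because vector replicate 1 was not analysed here, so the groups share 1 replicate number. With DESeq2 the members called were 0 in B cell-like, 1 in macrophage-like, 0 in monocyte-like, 4 in endothelial-like and 0 in T/NK-like cells, and 0 differences from macrophages were called in DC-like and T/NK-like cells. Over all genes DESeq2 called 183 against 1053 by edgeR in B cell-like, 718 against 2153 in T/NK-like, 137 against 247 in DC-like, 1026 against 3003 in endothelial-like and 82 against 463 in monocyte-like cells. In macrophage-like cells edgeR called 0, DESeq2 572 and edgeR with RLE factors 601. In B cell-like cells, at most 10% mitochondrial UMIs gave 0 members and leaving out the top 5% of doublet scores gave 0. In macrophage-like cells the doublet setting gave 1, thinning to 1000 UMIs 6, resolution 2.0 gave 1 and keeping the sub-clusters that failed the marker check 4. Without the low-count filter, 0 were called in monocyte-like cells, and 1 difference from macrophages in B cell-like and 4 in endothelial-like cells. Thinned endothelial-like cells gave 0, with 4 members left to test. Monocyte-like cells with at least 500 CPM of Ly6c2, a setting not planned, gave 1 call and a reversed median of 0.16. H2-Aa stood at 0.16, H2-Ab1 at 0.41, H2-Eb1 at 0.22, Cd74 at 0.24 and H2-DMb1 at 0.10 there, while Ciita and H2-DMa stayed negative. Other uncalled members changed sign: in DC-like cells Cd74 was 0.11 in the doublet setting, and H2-DMa -0.0584 when thinned and -0.0028 at resolution 2.0. In B cell-like cells H2-Ab1 was 0.10 in the doublet setting, H2-Eb1 -0.0027 without filter and -0.0138 when thinned, and H2-DMa 0.0472 with at most 10% mitochondrial UMIs. With neutrophil-like cells as the free-RNA reference, the mean ratio over libraries was 0.803 for endothelial-like (1.73 with T/NK-like) and 0.536 for mesenchymal-like cells (1.17). Apart from the library left out in each case, the causes were not tested. The doublet setting and resolution 2.0 in monocyte-like cells and the marker-free endothelial-like cells were not run, with under 50 cells in KLF2 replicate 1. Calls in the compartment stayed at 7 in the 10 settings tried.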

Other observations

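A vector cluster of 1453 cells stayed unnamed because mitochondrial genes and Igkc led it. Its median was 2023 UMIs per cell. The 7 genes took 4506 CPM there, and Ciita, with 392 UMIs, took 112 CPM. Ciita made up 2.50% (2.26 to 2.75, Wilson 95% interval) of its members' UMIs, against 0.778% in DC-like, 0.487% in macrophage-like and 1.17% in B cell-like cells of the same library and 1.65% (1.44 to 1.89) in T/NK-like cells. Thinned to 1000 UMIs, 32.2% of its cells held 5 or more member UMIs. The KLF2 libraries held 0 and 1 cells of the unnamed class.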
